A study of Homo sapiens with 2 samples.

Results

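KLF transcription factors were followed in HCT116 cells, a line derived from a human colorectal carcinoma, after transfection of an siRNA against KAT7. The set holds 10 genes, KLF2, KLF3, KLF4, KLF5, KLF6, KLF9, KLF10, KLF11, KLF13 and KLF16, taken by gene name from the 60623 named genes of the count table. All 10 had a mean of at least 1 CPM, the usual unit of counts scaled to library size, a level that 13217 genes reached. The siKAT7 group was 1 culture given an siRNA to KAT7, and the siControl group was 1 culture given a non-specific siRNA. Both were labelled as wild type in genotype and were transfected with the same lipid reagent. KAT7, also called HBO1, is a histone acetyltransferase of the MYST family. The labels used here do not state the siRNA sequences or the time after transfection. With 1 library per group no difference has a replicate check, and each interval below is an exact Clopper-Pearson 95% interval that covers counting error only.

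KLF proteins are DNA-binding transcription factors that recognise GC-rich and CACCC sequences through C2H2 zinc fingers at the carboxyl end, while the amino ends differ and recruit different partners. KLF2, KLF4, KLF5 and KLF6 are usually grouped as factors that work with histone acetyltransferases. KLF3 is a repressor that binds CTBP proteins, and KLF9, KLF10, KLF11, KLF13 and KLF16 can recruit the SIN3A corepressor. In the gut epithelium KLF5 is found in dividing crypt cells and KLF4 in differentiating cells that have left the cell cycle.

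The zinc finger stretches were compared between members in their coding bases. Identity in bases also counts codon changes that keep the same amino acid. It therefore does not measure how alike the proteins are where they bind DNA. In each of the 10 members a coding stretch of 243 bases (81 codons) held 3 C2H2 fingers with the same spacing, found in the longest protein-coding transcript of GENCODE 29 that held it. The stretches of 5 members are printed because pairs among them that were alike in these coding bases had unlike ratios, as described below. Sequences run 5′ to 3′ along the mRNA, and capitals mark the cysteine and histidine codons that hold the zinc ions.
KLF2: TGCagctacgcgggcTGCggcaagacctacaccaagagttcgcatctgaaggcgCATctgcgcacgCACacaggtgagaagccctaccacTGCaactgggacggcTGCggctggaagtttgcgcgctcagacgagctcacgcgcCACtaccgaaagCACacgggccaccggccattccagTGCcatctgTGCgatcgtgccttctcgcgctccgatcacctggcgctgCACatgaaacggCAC
KLF4: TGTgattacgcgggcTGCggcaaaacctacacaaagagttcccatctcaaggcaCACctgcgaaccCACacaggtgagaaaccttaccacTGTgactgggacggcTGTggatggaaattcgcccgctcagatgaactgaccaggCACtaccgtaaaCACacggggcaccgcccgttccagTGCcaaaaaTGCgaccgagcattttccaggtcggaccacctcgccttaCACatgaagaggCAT
KLF5: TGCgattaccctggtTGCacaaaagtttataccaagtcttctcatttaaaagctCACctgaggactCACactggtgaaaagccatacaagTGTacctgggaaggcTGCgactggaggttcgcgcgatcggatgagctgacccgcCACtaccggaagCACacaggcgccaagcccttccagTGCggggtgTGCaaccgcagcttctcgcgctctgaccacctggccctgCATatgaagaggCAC
KLF13: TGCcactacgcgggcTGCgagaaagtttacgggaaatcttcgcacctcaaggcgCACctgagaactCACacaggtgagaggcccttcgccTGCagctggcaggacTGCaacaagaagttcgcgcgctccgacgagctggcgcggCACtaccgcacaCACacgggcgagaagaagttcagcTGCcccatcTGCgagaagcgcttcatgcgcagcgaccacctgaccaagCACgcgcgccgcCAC
KLF16: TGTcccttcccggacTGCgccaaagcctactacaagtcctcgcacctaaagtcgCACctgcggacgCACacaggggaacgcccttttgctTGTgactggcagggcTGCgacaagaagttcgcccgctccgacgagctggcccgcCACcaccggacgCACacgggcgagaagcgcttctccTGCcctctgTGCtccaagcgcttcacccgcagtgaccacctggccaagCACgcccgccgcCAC
On GRCh38 the KLF2 stretch lies at chr19:16325960-16327025 on the forward strand, across exons 2 and 3 of the transcript. The KLF4 stretch lies at chr9:107485757-107487100 on the reverse strand, across exons 4 and 5. That of KLF5 spans chr13:73062722-73075877 on the forward strand, in exons 2 to 4. KLF13 has it at chr15:31327717-31372179 on the forward strand and KLF16 at chr19:1854591-1863113 on the reverse strand, both in exons 1 and 2. These spans include the introns between the exons.

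Between members the finger stretches were 55.1% to 78.6% identical in bases, with a median of 65.4% over 45 pairs. KLF2 and KLF4 shared 191 of the 243 bases, and KLF13 and KLF16 shared 190, as did KLF10 and KLF11. The longest run of identical bases between the transcripts of any 2 members, on either strand, was 24 bases. In 7 members the expected counts, which are estimated read counts, were whole numbers within 0.015 in both libraries. KLF3 and KLF11 had fractional values in both, and KLF16 had one in siControl.

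The libraries were close in depth, with 23533134 rounded counts over named genes in siKAT7 and 23450326 in siControl. KAT7 itself, the target, had 287.22 expected counts in siKAT7 and 442.94 in siControl. Its log2 ratio was -0.52 (-0.74 to -0.31), so 69.6% of the siControl level remained. At 1.44-fold lower under TMM scaling, the target itself did not reach the 1.5-fold rule used below. Of 10 colon epithelial markers 6 were measured, EPCAM, KRT8, KRT18, KRT19, CDH1 and CDX2. CDX1 had 0 counts in both libraries, and CDH17 and LGALS4, with 0 in siKAT7, had 1 and 3 in siControl. Of the markers of other cell types, 1 of 6 fibroblast genes (COL1A1), 0 of 6 blood cell genes and 0 of 5 endothelial genes were measured. Summed levels were 31.7 CPM in siKAT7 and 31.8 CPM in siControl for the fibroblast list, 2.43 CPM in siKAT7 and 1.93 CPM in siControl for the blood cell list, and 0.970 CPM in siKAT7 and 0.822 CPM in siControl for the endothelial list. Their part in the results below was not tested. PTPRC, PECAM1 and CDH5 had 0 counts in both libraries. In such bulk RNA, fewer cells of a kind and less RNA per cell cannot be told apart.

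None of the 10 KLF genes was 1.5-fold higher or lower in siKAT7. Among all measured genes, 3.92% were at least 1.5-fold higher with an interval that excluded 0, and 3.91% were lower. The log2 ratios of the members, siKAT7 over siControl, ran from -0.14 for KLF13 to 0.30 for KLF5, with a median of 0.07 against -0.0048 for all measured genes. Every member's interval lay inside the 1.5-fold bounds, with outer ends at 1.27-fold lower and 1.32-fold higher. A 1.5-fold difference between these 2 libraries thus lay outside the counting interval of each of the 10. The intervals excluded 0 for 6 members, of which 4 were above it and 2 below. Of all measured genes, 23.0% had an interval wholly above 0 and 22.0% wholly below it, so intervals that exclude 0 were common. These shares cover all genes from 1 CPM up and were not computed for genes at the members' own levels.

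**Figure D1:**
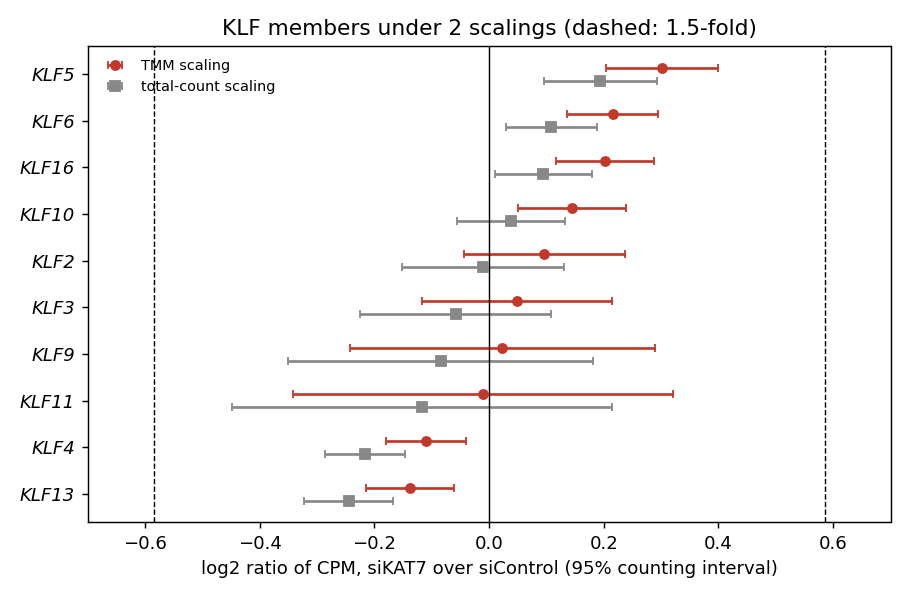
Log2 ratios of CPM, siKAT7 over siControl, of the 10 KLF genes, with 95% counting intervals, under TMM scaling (circles) and total-count scaling (squares). Dashed lines mark 1.5-fold. All points and intervals lie between the dashed lines, from -0.14 (KLF13) to 0.30 (KLF5) under TMM scaling.

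The ratios depend on the scaling by about the size of the differences themselves. TMM scaling, which trims extreme genes, was the main choice, and total-count scaling moved the median log2 ratio of all measured genes by -0.11. Under total-count scaling 4 members were above 0 and 6 below, against 7 and 3 under TMM scaling. The members' median was then -0.03, against -0.11 for all measured genes. KLF2, KLF3 and KLF9 were the members that changed sign between these scalings. KLF5, KLF6 and KLF16 kept intervals above 0 and KLF4 and KLF13 kept intervals below 0 under both of them and with DESeq2 size factors. Directions named below are relative to TMM scaling unless another is given.

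The factors of the first group, which include the gut-associated KLF4 and KLF5, did not share a direction. KLF5, a factor of dividing crypt cells, had 1822 counts in siKAT7 and 1587 in siControl, or 80.4 CPM in siKAT7 and 65.2 CPM in siControl. Its log2 ratio of 0.30 (0.20 to 0.40) was the highest of the 10, and under total-count scaling it was 0.19. The KLF5 gene (ENSG00000102554) is on the forward strand of GRCh38 chromosome 13, from 73054976 to 73077542.
KLF4, which is linked to exit from the cell cycle and is also a reprogramming factor, had 3111 counts in siKAT7 and 3602 in siControl, or 137 CPM in siKAT7 and 148 CPM in siControl. The siKAT7 value was the lower one, with a log2 ratio of -0.11 (-0.18 to -0.04). Total-count scaling gave -0.22. KLF4 (ENSG00000136826) is on the reverse strand of chromosome 9, from 107484852 to 107490482.

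KLF6, a widely expressed factor described as a tumour suppressor, had 2690 counts in siKAT7 and 2486 in siControl, with a log2 ratio of 0.22 (0.14 to 0.30). It was the member with the second highest ratio, and 78.1% of all measured genes had a lower one. KLF6 (ENSG00000067082) is on chromosome 10 at 3775996 to 3785281, on the reverse strand. KLF2, known for its role in endothelial cells and resting T cells, had 824 counts in siKAT7 and 827 in siControl. The nearly equal counts gave a log2 ratio of 0.10 (-0.04 to 0.24) under TMM scaling and -0.01 under total-count scaling. KLF2 (ENSG00000127528) is on chromosome 19 at 16324817 to 16327874, on the forward strand.

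Among the SIN3A-binding factors, KLF13 and KLF16, alike in the coding bases of their fingers, lay on opposite sides of 0. KLF13, first described as a regulator of the chemokine gene CCL5 in T cells, had 2538 counts in siKAT7 and 2997 in siControl. Its log2 ratio of -0.14 (-0.21 to -0.06) was the lowest of the 10, and it was -0.24 under total-count scaling. KLF13 (ENSG00000169926) is on chromosome 15 at 31326855 to 31435665, on the forward strand.
KLF16 had 2331.99 expected counts in siKAT7 and 2176.23 in siControl, with the siKAT7 value the higher one. The log2 ratio was 0.20 (0.12 to 0.29), and 0.09 under total-count scaling. KLF16 (ENSG00000129911) is on chromosome 19 at 1852399 to 1863568, on the reverse strand. KLF9, a factor induced by glucocorticoid and thyroid hormone, had 231 counts in siKAT7 and 244 in siControl and a log2 ratio of 0.02 (-0.24 to 0.29). KLF9 (ENSG00000119138) is on chromosome 9 at 70384597 to 70414624, on the reverse strand.

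KLF10 and KLF11 are known as early genes of TGF-beta signalling. KLF10 (ENSG00000155090, chromosome 8) had 1861 counts in siKAT7 and 1806 in siControl, with a log2 ratio of 0.15 (0.05 to 0.24). Under total-count scaling its interval included 0, at 0.04 (-0.06 to 0.13). KLF11 had the fewest counts of the 10, with 149.34 expected counts in siKAT7 and 160.59 in siControl, and a log2 ratio of -0.01 (-0.34 to 0.32). KLF11 (ENSG00000172059) is on chromosome 2 at 10042849 to 10054836, on the forward strand. KLF3, the CTBP-binding repressor, had 586.33 expected counts in siKAT7 and 607.70 in siControl and a log2 ratio of 0.05 (-0.12 to 0.21). KLF3 (ENSG00000109787) is on chromosome 4 at 38664196 to 38701042, on the forward strand. Neither KLF3 nor KLF11 differed between the libraries beyond counting error.

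**Figure D2:**
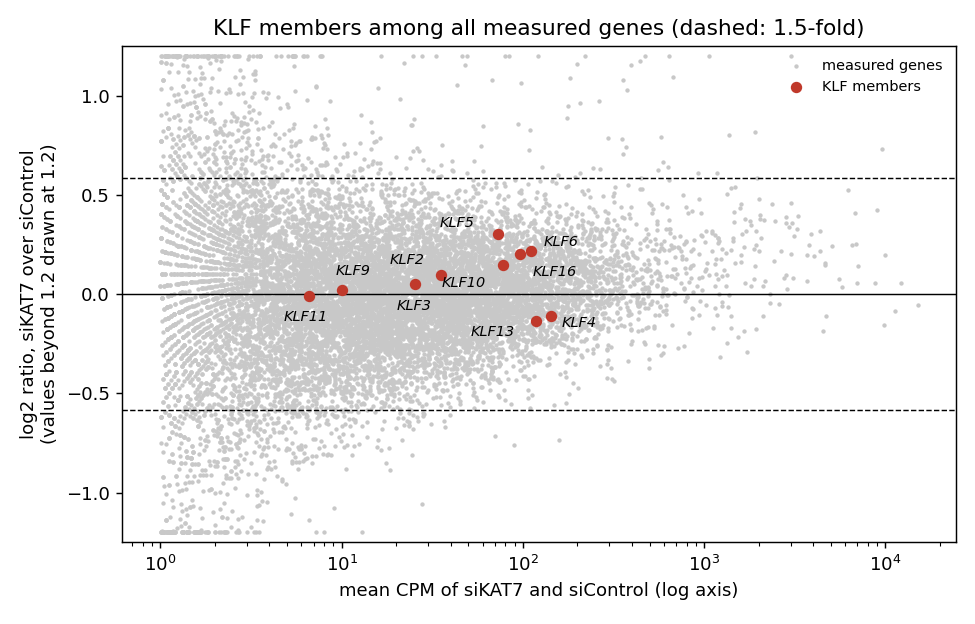
Log2 ratio, siKAT7 over siControl, against mean CPM (log axis) for the 13217 measured genes (grey) and the 10 KLF genes (red), with dashed lines at 1.5-fold. The KLF genes lie between -0.14 and 0.30, inside the main body of genes at their level.

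The members were also set among genes of their own level. Between 6.59 and 143 CPM, the mean levels of the lowest and highest member, there were 7811 genes. Their central 95% of log2 ratios ran from -0.51 to 0.50 and their middle 50% from -0.18 to 0.15. KLF5, KLF6 and KLF16 lay above that middle range, and the other 7 members lay inside it. In the authors' deposited table, which holds ratios of total-count-scaled counts, the log2 folds of the 10 were between -0.24 (KLF13) and 0.19 (KLF5), and 0 of them carried the authors' mark of significance. Adjusted p-values there were under 0.05 for 4 members, KLF4 (1.52e-08) and KLF13 (5.64e-09) with negative folds and KLF5 (0.000665) and KLF6 (0.0295) with positive ones. Those p-values, in the authors' deposited table, compare 2 libraries and not 2 conditions. The shares of all genes there with the mark or with such p-values are not given here. Both counts thus describe the KLF genes alone.

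Differences between members do not depend on scaling, because a common factor cancels. Over the 45 pairs, the difference in log2 ratio had a counting interval that excluded 0 in 14, of which 11 involved KLF4 or KLF13 and the other 3 involved KLF5. The largest difference was 0.44 (0.31 to 0.56), between KLF5 and KLF13. For the gut pair, KLF5 exceeded KLF4 by 0.41 (0.29 to 0.53). KLF9 and KLF11, with few counts, differed from no other member beyond counting error. The share of such differences among pairs of other genes was not computed, so the count is a description of the KLF genes alone. Among single genes, 23.0% had an interval above 0 and 22.0% had one below it.

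The ratios of the pairs most alike in finger coding bases are given as a description. KLF16 exceeded KLF13 by 0.34 (0.22 to 0.45) in log2 ratio, and the printed finger stretches are 78.2% identical. KLF2 exceeded KLF4 by 0.21 (0.05 to 0.36) at 78.6% identity. KLF10 and KLF11, also 78.2% identical, differed by 0.16, with an interval of -0.19 to 0.50 that included 0. KLF9 and KLF13, at 75.3% identity, differed by 0.16 (-0.12 to 0.44).

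**Figure D3:**
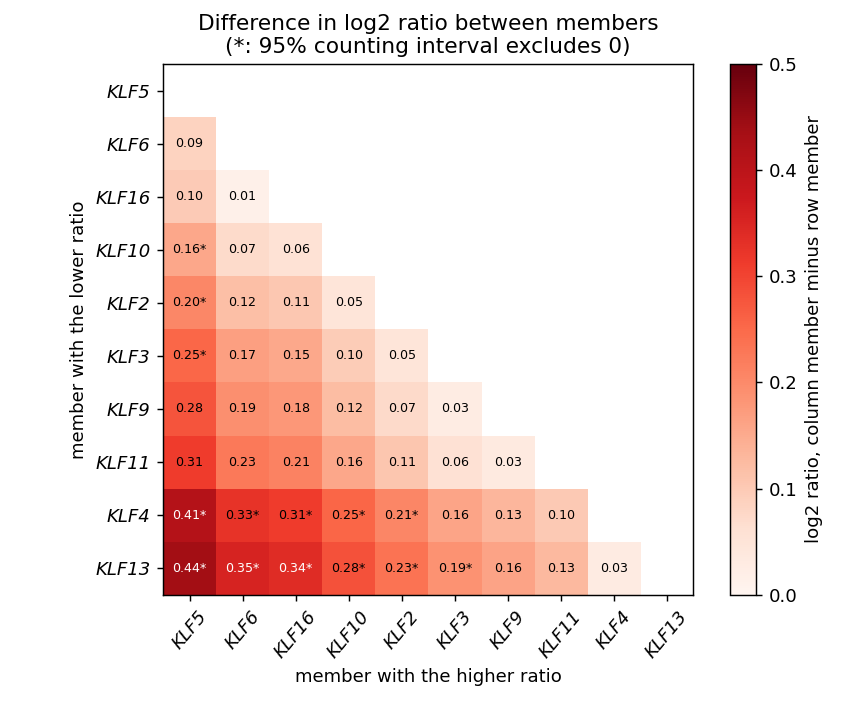
Difference in log2 ratio (siKAT7 over siControl) for each of the 45 pairs of KLF genes, as the column gene minus the row gene, with genes in order of their ratio and stars where the 95% counting interval excluded 0. The 14 starred cells lie in the KLF5 column and in the KLF4 and KLF13 rows, up to 0.44.

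The order of mRNA levels was almost the same in both libraries. Levels between genes are given as RPKM, TMM-scaled CPM divided by the listed gene length in kilobases. Intervals of level ratios between genes take that length as exact and cover counting error only. KLF4 was the most abundant member, with 46.7 RPKM in siKAT7 and 50.4 RPKM in siControl. KLF16 followed with 35.5 RPKM in siKAT7 and 30.8 RPKM in siControl, then KLF10 with 28.2 RPKM in siKAT7 and 25.5 RPKM in siControl. These 3 and KLF6 together made up 67.2% of the summed RPKM of the 10 members in siKAT7 and 67.4% in siControl. KLF6 had 25.8 RPKM in siKAT7 and 22.3 RPKM in siControl, and KLF5 had 24.0 RPKM in siKAT7 and 19.5 RPKM in siControl. KLF2, with 18.0 RPKM in siKAT7 and 16.8 RPKM in siControl, and KLF13, with 16.4 RPKM in siKAT7 and 18.0 RPKM in siControl, stood next and were the one pair to trade places. In siKAT7 KLF2 was above KLF13, with a log2 level ratio of 0.14 (0.02 to 0.25). In siControl their levels did not differ beyond counting error, with a log2 level ratio of KLF13 to KLF2 of 0.10 (-0.02 to 0.21).

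KLF3, KLF9 and KLF11 stood apart at the low end. KLF3 had 4.62 RPKM in siKAT7 and 4.47 RPKM in siControl, KLF9 1.97 RPKM in siKAT7 and 1.94 RPKM in siControl, and KLF11 1.63 RPKM in siKAT7 and 1.64 RPKM in siControl. Together these 3 made up 4.05% of the members' RPKM in siKAT7 and 4.20% in siControl. KLF9 and KLF11 were the only other neighbours in the order whose levels did not differ beyond counting error, with log2 level ratios of 0.27 (-0.03 to 0.58) in siKAT7 and 0.24 (-0.05 to 0.54) in siControl. The share of KLF4 in the members' RPKM was 23.0% in siKAT7 and 26.4% in siControl, and that of KLF5 was 11.8% in siKAT7 and 10.2% in siControl.

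**Figure D4:**
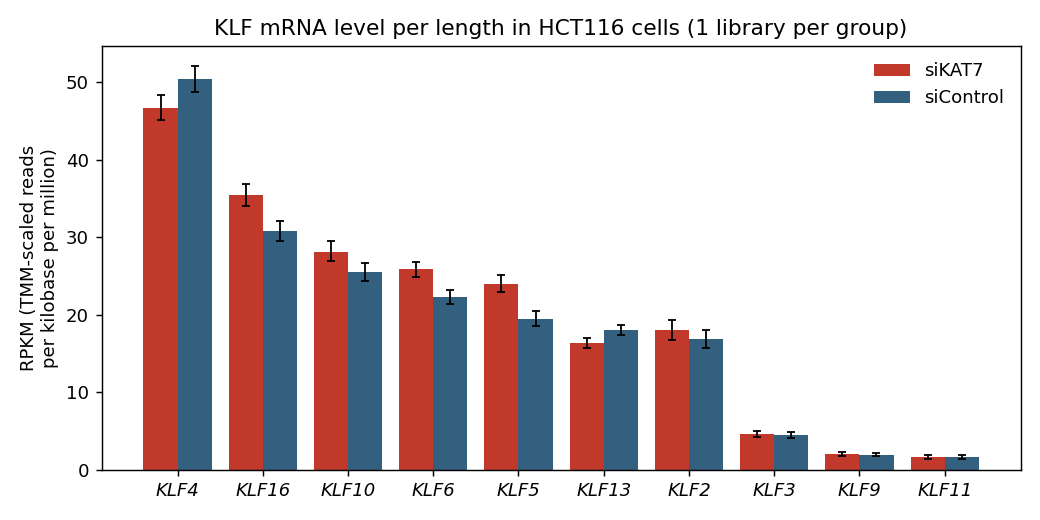
RPKM of the 10 KLF genes in siKAT7 (left bars) and siControl (right bars), 1 library each, with exact Poisson 95% counting intervals. KLF4 is the highest in both libraries, at 46.7 RPKM in siKAT7 and 50.4 RPKM in siControl, and KLF3, KLF9 and KLF11 are each under 5 RPKM.

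The 3 members without whole counts in both libraries were those that overlap a gene with counts on the opposite strand. KLF16 overlaps AC012615.3 over 1224 bases, and the expected counts of the pair summed to 2572 in siKAT7 and 2350 in siControl. The KLF11 pair with ENSG00000271787, an antisense gene that overlaps it over 416 bases, summed to 156 in siKAT7 and 171 in siControl. These 4 sums are whole numbers within 0.015 counts. The single values of KLF11 in both libraries and of KLF16 in siControl are not, while that of KLF16 in siKAT7 is. KLF3 and KLF3-AS1, which overlap over 688 bases, summed to 644.37 in siKAT7 and 642 in siControl, whole in siControl alone. The sources used here do not state whether the counting used strand, so reads of the 2 strands cannot be told apart in these values.

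Summing each pair moved the ratios of these members by less than their counting intervals. The antisense genes held 9.33% of the KLF16 pair in siKAT7 and 7.39% in siControl, 9.01% of the KLF3 pair in siKAT7 and 5.34% in siControl, and 4.27% of the KLF11 pair in siKAT7 and 6.09% in siControl. KLF3-AS1 had 58.04 expected counts in siKAT7 and 34.30 in siControl, a log2 ratio of 0.86 (0.24 to 1.53). AC012615.3 had 240.01 in siKAT7 and 173.77 in siControl, a log2 ratio of 0.56 (0.28 to 0.86). ENSG00000271787 had 6.66 in siKAT7 and 10.41 in siControl, a log2 ratio of -0.39 (-2.04 to 1.13). With each pair summed, the log2 ratio was 0.23 (0.15 to 0.31) for KLF16, 0.11 (-0.05 to 0.27) for KLF3 and -0.03 (-0.35 to 0.29) for KLF11.

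The other KLF genes and the related SP factors bind like sequences. Of the 8 other KLF genes, 4 were measured (KLF7, KLF12, KLF14 and KLF15), 3 had 0 counts in both libraries (KLF1, KLF17 and KLF18) and KLF8 was below 1 CPM. Of the 4, 0 were higher and 1 was lower, KLF14, named after its values were seen, with 22 counts in siKAT7 and 45 in siControl and a log2 ratio of -0.92 (-1.74 to -0.16). This call rests on 67 counts and was lost with a 99% interval. KLF8, also named after its values were seen, had 18 counts in siKAT7 and 6 in siControl.
Of 7 measured SP factors, 1 was higher and 0 were lower. SP5, a repressor induced by WNT signalling, had 74 counts in siKAT7 and 42 in siControl and was 1.88-fold higher in siKAT7. SP1, the founding member of that family, had 745 counts in siKAT7 and 854 in siControl and a log2 ratio of -0.09 (-0.24 to 0.05).

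Proteins that work with or on the KLF factors are given beside the 3.92% higher and 3.91% lower of all measured genes, and their counts are a description of these lists. Of 13 measured cofactors, such as SIN3A, the CTBP proteins and histone acetyltransferases and deacetylases, 0 were higher and 0 lower, with a median log2 ratio of 0.0023. Of 8 ubiquitin ligases reported to act on KLF proteins, 1 was higher and 0 lower. This was FBXO32, reported to target KLF4, with 196 counts in siKAT7 and 122 in siControl and a log2 ratio of 0.78 (0.45 to 1.12). Of 17 measured upstream regulators, 0 were higher and 0 lower, with a median of 0.06. Under total-count scaling 2 of them counted as lower, the glucocorticoid receptor NR3C1 and the TGF-beta receptor TGFBR1, both named after their values were seen. TGFBR1 had 104 counts in siKAT7 and 162 in siControl and a log2 ratio of -0.54 (-0.91 to -0.17).

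Among 20 measured genes reported as KLF targets in various cell types, 1 was higher and 0 were lower. ATF3, a stress-induced factor listed as a KLF6 target, had 10140 counts in siKAT7 and 6332 in siControl and a log2 ratio of 0.78 (0.74 to 0.83). The other 19 did not pass the 1.5-fold rule, and the list median was 0.05, against -0.0048 for all measured genes. CDKN1A, which KLF4 and KLF6 can activate, had a log2 ratio of 0.04. CCND1, the cyclin D1 gene reported to be activated by KLF5 and repressed by KLF4, had 7564 counts in siKAT7 and 10267 in siControl and a log2 ratio of -0.34 (-0.38 to -0.30). SMAD7, reported as repressed by KLF10 and KLF11, had 322 counts in siKAT7 and 239 in siControl and a log2 ratio of 0.53 (0.29 to 0.78). ODC1, at -0.47 (-0.53 to -0.41), and CCNB1, at -0.41 (-0.54 to -0.29), lay further below 0 than CCND1. Of the 20 measured targets, 5 had an interval above 0 and 7 had one below it. Among all measured genes these shares were 23.0% and 22.0%. CDKN1A, CCND1, SMAD7, ODC1 and CCNB1 were named after their values were seen. The medians of the 6 linked lists lay between 0.00016 and 0.06. All 6 were below 0 under total-count scaling, where the median of all measured genes was -0.11.

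**Figure D5:**
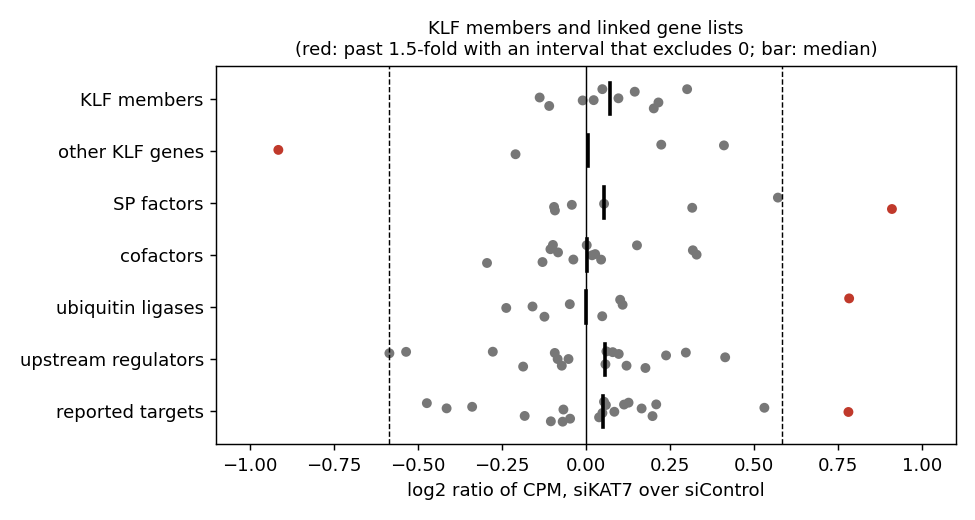
Log2 ratios, siKAT7 over siControl, of the KLF members and of the measured genes in 6 linked lists, with bars at the medians, dashed lines at 1.5-fold and red points for genes past 1.5-fold with an interval that excluded 0. No KLF member is red, and 4 genes of the linked lists are (KLF14, SP5, FBXO32 and ATF3).

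Promoter windows of the members were searched for common promoter motifs. RefSeq windows on GRCh38.p14, from 250 bases before to 50 after a start, were in the table for 8 of the 10 members, with 10 windows in all and no entry for KLF3 and KLF10. Motifs were searched on both strands. The GC box GGGCGG, the kind of sequence that KLF and SP factors bind, was in 8 of the 10 windows, and in 45% of all 35116 windows of that length. KLF11 had it in both of its windows. The 8 windows with it were 69% to 86% G and C. A KLF5 window (40.7%) and the KLF9 window (32.7%) lacked it. Whether the count follows base composition was not tested. The CACCC box was in 4 of 10, and in 59.9% of all windows. The core TGACG of the cyclic AMP response element was in 5 of 10 (24.6% of all), and the full TGACGTCA, which contains that core, in 1, of KLF11 (1.85% of all). The AP-1 letters TGANTCA (7.71% of all) and the CArG box (1.29% of all) were in 0 of 10. CCAAT was in 4 of 10 (34.6% of all), GATA in 2 (49.7%), TATAAA in 1, of KLF5 (11.5%), and the E-box CACGTG in 3 (7.26%). These matches describe letters in a window and no binding.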

How the data were processed

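RNA-seq was deposited for 1 siKAT7 and 1 siControl culture of HCT116. The deposited expected counts per gene are estimates that need not be whole, and the submitters' processing notes name RSEM 1.3.3 and GRCh38.p13. For the aligner, annotation release and strand setting, nothing is stated in the sources used here. The table lists each gene's length and repeats both count columns with 0 differing cells, so the first pair was used. The column headed siHBO1 was taken as siKAT7, since HBO1 is another name of KAT7. Its 331 unnamed rows (1.67% of counts in siKAT7, 1.11% in siControl) were left out. The authors' deposited comparison gives for each gene a fold (ratio) and log2 fold with raw and adjusted p-values, and its tool is not stated.

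Counts were rounded and scaled with TMM (edgeR 4.0.16, R 4.3.3). Log2 ratios, siKAT7 over siControl, used a prior count of 0.5. A gene was measured where its mean reached 1 CPM, and higher or lower meant 1.5-fold or more with a 95% interval that excludes 0. The library factors were 0.964 for siKAT7 and 1.04 for siControl. Intervals of differences between members were exact conditional odds ratio intervals (scipy 1.17.1). Intervals cover counting error only, and no molecular identifiers are mentioned in the labels, so reads may be PCR copies. The procedure was tested on data simulated with counting error only and with planted differences larger than that of any member. That test cannot show how it performs with spread between cultures or at small ratios. All 110 symbols of 10 gene lists matched, and gene positions came from GENCODE 29. Members and lists were chosen with earlier results of these data known. The text names KAT7, all members and up to 4 genes per list that passed the rule with at least 100 counts over both libraries. Others named from the lists after their values were seen are marked. The antisense genes are in no list and are named because they overlap members and have counts. The marker genes, SP1 and SIN3A are named as examples of their lists. Protein sequences were not used here, so the planned protein comparison was made on coding bases. Alternatives were total-count scaling, DESeq2 1.42.0 size factors, other prior counts, filters, thresholds and interval levels, protein-coding library sizes, the authors' folds and, added after seeing the data, sums with antisense genes.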

Additional observations from a re-analysis of the deposited data

How the results depend on the processing

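No KLF member counted as higher or lower under total-count scaling, DESeq2 size factors, a prior count of 5 or protein-coding library sizes. The count was also 0 with a mean of at least 10 CPM, a 2-fold threshold or a 99% interval. These are stricter rules that could not add a call. It was 0 with no filter on low counts too, which could not add one either because all 10 members were already measured. The members' median log2 ratio ran from -0.03 (total-count scaling) to 0.10 (summed with antisense genes). Of 53 member values under other settings, 41 stayed within the counting interval of the main value. The other 12 were KLF4, KLF5, KLF6, KLF10, KLF13 and KLF16 under total-count scaling and in the authors' deposited table. KAT7 was -0.63 (-0.85 to -0.41) under total-count scaling, which is past 1.5-fold, while its main value of -0.52 was not.

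Some list counts changed with the setting. With no filter, 1 other KLF gene (KLF8) and 1 upstream regulator (THRB, also named after its values were seen) counted as higher, against 0 for each. The 1 lower KLF gene (KLF14) became 0 at a mean of at least 10 CPM, at 2-fold and with a 99% interval. The 1 higher SP factor and the 1 higher ubiquitin ligase became 0 at a mean of at least 10 CPM and at 2-fold, and the 1 higher reported target became 0 at 2-fold. Upstream regulators counted as lower were 2 under total-count scaling, against 0. Over all measured genes, total-count scaling gave 355 higher and 843 lower, against 518 and 517 with TMM scaling.

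No paired analysis was possible because each group has 1 library. For the same reason no replicate was left out. Depth limits KLF9 and KLF11 most, with under 250 counts in each library, while the spread between cultures is unknown for all members.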
